A study of Homo sapiens with 6 samples.

Results

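Immediate early genes are genes whose transcription starts within minutes of a growth factor, stress or mechanical signal without new protein synthesis, and the 8 described here belong to this class and lie outside the AP-1 family: the transcription factors EGR1 and NR4A1, the immediate early response genes IER2, IER3 and IER5, the mRNA decay factors ZFP36 and ZFP36L1, and the MAP kinase phosphatase DUSP1. They were chosen by symbol, and all 8 were found among the 17211 genes with a value and among the 17204 tested. The RNA came from CAOV2, a human ovarian cancer line that some of the labels also describe as primary cells, and was read from stranded poly(A) libraries. Cells of 3 libraries had received siRNA against TAZ (siTAZ) and cells of 3 libraries a non-targeting siRNA (siNT). In both groups each well began with 100000 cells, the lipid transfection with 100 pmol of siRNA lasted 2 days, and harvest was on day 3, so the cells of both groups carry the effects of transfection, and no untransfected group was analysed here. TAZ, the product of WWTR1, is a Hippo pathway coactivator that works through TEAD factors, and the comparison asks which transcripts change when it is silenced.

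By way of background, ERK and cytoskeletal signals reach many immediate early promoters through serum response factor (SRF) bound to CArG boxes, with ternary complex factors such as ELK1 or with the actin-regulated coactivators MRTFA and MRTFB, while cyclic AMP and stress signals act through CREB family factors. The induced mRNAs are usually short-lived, because AU-rich elements in their 3′ untranslated regions recruit decay factors such as ZFP36. ZFP36 and DUSP1 are therefore both products and brakes of the same response, ZFP36 acting on mRNAs and DUSP1 on the kinases. The cells here were collected days after transfection, with no stimulus named in the labels.

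Reads counted in genes numbered 28458503 to 34488196 per siTAZ library and 25478595 to 28928432 per siNT library. Levels are the deposited values, that is reads divided by 1 size factor per library. WWTR1 had 266 ± 21.0 in siTAZ and 4278 ± 73.2 in siNT (SD, n = 3 each; log2 fold change -4.0, limma adjusted p = 8e-17), and its paralog YAP1 had 4875 ± 185 in siTAZ and 5992 ± 213 in siNT (log2 fold change -0.30, limma adjusted p = 4.7e-05). Of 11 markers listed for ovarian carcinoma 8 had a value, 4 rose, 2 fell and 2 were not called, and their summed level was 70631 to 76861 in siTAZ and 82648 to 89600 in siNT. The largest changes were in KRT7, at 8604 ± 879 in siTAZ and 22847 ± 1266 in siNT, EPCAM, at 1361 ± 42.0 in siTAZ and 500.7 ± 10.3 in siNT, and CDH6, at 1779 ± 85.9 in siTAZ and 689.6 ± 44.4 in siNT. The keratins KRT8 and KRT18 were abundant, with 39346 ± 1316 and 22365 ± 1129 in siTAZ and 35206 ± 1349 and 27495 ± 1133 in siNT, while PAX8 and MUC16 were scarce, at 18.2 ± 3.28 and 7.98 ± 1.55 in siTAZ and 28.8 ± 13.9 and 11.9 ± 3.67 in siNT. WT1, WFDC2 and SOX17 were not analysed here. Of 7 fibroblast markers 6 had a value, 3 of them rose and 1 fell, and their summed level was 6614 to 7502 in siTAZ and 5609.5 to 6399 in siNT. Of 7 leukocyte markers 3 had a value, 2 of them rose, and the sum was 268 to 318 in siTAZ and 137 to 145 in siNT. These marker counts are to be read beside the shares of all genes tested, of which 28.3% rose and 27.5% fell. Among genes with a mean of at least 300 these shares were 31.9% and 35%. PTPRC and CD3E, which define leukocytes, and all 5 endothelial markers were not analysed here, having no value. Mitochondrial transcripts took 3.15% to 3.91% of the reads in siTAZ and 2.85% to 3.40% in siNT. The part of these differences in the results below was not tested, and in bulk RNA fewer cells of a type cannot be told apart from less RNA per cell.

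Of the 8 genes, 4 fell in siTAZ (EGR1, IER2, IER3 and IER5), 2 rose (ZFP36 and ZFP36L1) and 2 did not pass the test (NR4A1 and DUSP1), by limma with Benjamini-Hochberg adjustment over all genes and a threshold of 0.05. Over all 17204 genes the same test called 55.8%, with 28.3% higher and 27.5% lower. The 8 genes have means above 300, and among 9671 genes that average at least 300 it called 66.9%, with 31.9% higher and 35% lower. In 6 of the 8 genes the libraries of the groups did not overlap, which held for 61.4% of all genes and 70.5% of those with a mean of at least 300. These shares are near those of the 8 genes. The counts of called genes in the lists below are to be read beside the same shares. No member reached 2-fold, a size that 10.6% of all genes and 3.97% of those with a mean of at least 300 reached with a call. The median log2 fold change was -0.16, against 0.00 over all genes. The 4 genes that fell include every IER gene among the 8, and the 2 that rose are the RNA-binding decay factors. This grouping was seen in these values and was not tested. Of the other listed IER genes, IER5L did not pass and IER3IP1 rose.

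**Figure D1:**
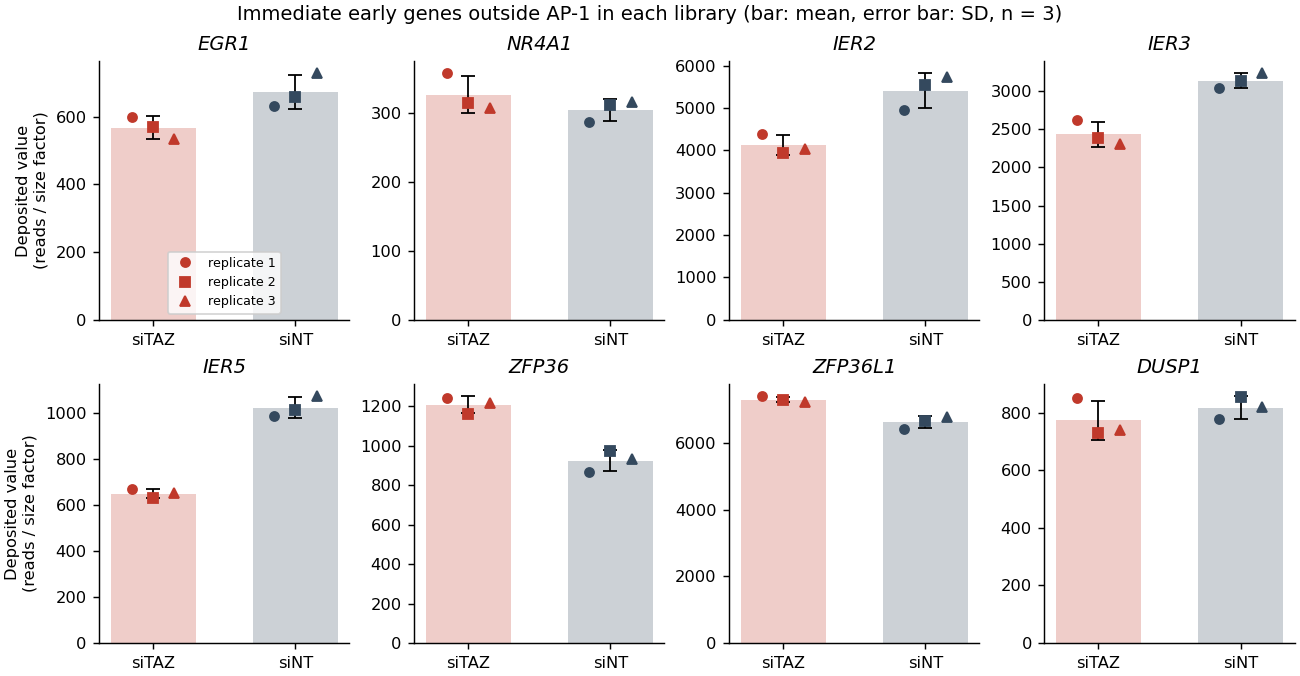
Deposited values (reads divided by the size factor, y axes from 0) of the 8 genes in each siTAZ and siNT library; bars are means, error bars SD of 3 libraries, and circles, squares and triangles are replicates 1, 2 and 3. The siTAZ points of EGR1, IER2, IER3 and IER5 lie below all siNT points, those of ZFP36 and ZFP36L1 lie above them, and those of NR4A1 and DUSP1 overlap them.

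EGR1 (ENSG00000120738) encodes a zinc finger transcription factor that binds GC-rich sites and is among the most used readouts of ERK signalling. Its values were 599.5, 569 and 534 in the siTAZ libraries, against 630.4, 658 and 727 in the siNT libraries. All 3 siTAZ libraries were lower than the lowest siNT library, with replicate 1 of each group forming the nearest pair. The mean was 567 ± 32.8 in siTAZ and 672 ± 49.97 in siNT, and EGR1 fell by 15.6% (log2 fold change -0.24, SE 0.07, 95% interval -0.40 to -0.09, limma adjusted p = 0.0096). The call was lost without siTAZ replicate 3 (limma adjusted p = 0.054) and without siNT replicate 3 (0.07), and this p ran between 0.00035 and 0.07 in the 17 alternatives. The relatives of EGR1 were scarce and lower too. EGR2 fell to 18.9 ± 0.314 in siTAZ, against 38.7 ± 8.17 in siNT, EGR3 fell to 24.4 ± 8.65 in siTAZ, against 39.3 ± 1.70 in siNT, and EGR4 to 9.16 ± 2.46 in siTAZ, against 16.9 ± 1.23 in siNT. NAB2, a corepressor that binds EGR proteins and is itself induced by EGR1, fell to 582 ± 36.3 in siTAZ, against 753 ± 68.4 in siNT (log2 fold change -0.37, limma adjusted p = 0.00055), whereas the related NAB1 did not pass, at 2034 ± 138 in siTAZ and 1872 ± 64.8 in siNT. Against 27.5% lower and 28.3% higher over all genes, 5 of these 6 genes fell and 0 rose. Only 3 of them were called by DESeq2 and, with limma, without siTAZ replicate 2, without siTAZ replicate 3 or without siNT replicate 3, and NAB1 was called as higher with total count scaling, without siTAZ replicate 1, and without replicate 1 of both groups.

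Of 10 genes listed as EGR1 targets, EGR1 and NAB2 included, 4 rose, 4 fell and 2 were not called. Their median log2 fold change was 0.05. The growth factor gene PDGFB fell to 72.5 ± 9.30 in siTAZ, against 159 ± 5.75 in siNT, and TGFB1 fell to 11128 ± 672 in siTAZ, against 13675 ± 826 in siNT. GADD45A, a growth arrest gene, rose to 825 ± 13.3 in siTAZ, against 558 ± 30.8 in siNT. The list moved in both directions while EGR1 itself fell, and the part of EGR1 in these changes was not tested.

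NR4A1 (ENSG00000123358), also called NUR77, encodes an orphan nuclear receptor whose activity follows its abundance. It had 357, 314 and 308 in the siTAZ libraries, against 287, 311 and 317 in the siNT libraries. The groups overlap, with siTAZ replicate 1 above and siNT replicate 1 below the other 4 libraries, which lie between 308 and 317. The mean was 326 ± 27.0 in siTAZ and 305 ± 15.8 in siNT (log2 fold change 0.10, SE 0.09, 95% interval -0.09 to 0.28, limma adjusted p = 0.36). NR4A1 was also the gene with the fewest reads of the 8, with as few as 262 in a library, where counting error alone is 6.18% of the value. Neither relative passed, NR4A2 at 135 ± 21.4 in siTAZ and 119.7 ± 5.14 in siNT and NR4A3 at 22.9 ± 4.83 in siTAZ and 27.8 ± 11.5 in siNT. Of the RXR genes, whose products pair with NR4A1 and NR4A2, RXRB rose to 1492 ± 34.9 in siTAZ, against 1228 ± 48.7 in siNT (limma adjusted p = 0.00032), and RXRA fell to 2679 ± 71.2 in siTAZ, against 3045 ± 178 in siNT (limma adjusted p = 0.0068), a call lost without siNT replicate 3.

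The IER genes encode small proteins with no enzyme activity that act through partners. IER5 (ENSG00000162783), which binds protein phosphatase 2A and the heat shock factor HSF1, had the largest change of the 8. It had 669, 629.6 and 652 in the siTAZ libraries, against 986, 1014 and 1073 in the siNT libraries. The groups lie far apart beside their own spread, with coefficients of variation of 3.05% in siTAZ and 4.32% in siNT. IER5 fell by 36.5%, to 650.4 ± 19.8 in siTAZ, against 1025 ± 44.2 in siNT (log2 fold change -0.65, SE 0.06, 95% interval -0.79 to -0.52, limma adjusted p = 1.2e-07). A larger absolute change was seen in 23.0% of all genes. Of the 5 IER genes listed, 3 fell, 1 rose and 1 did not pass. The relative IER5L did not pass, at 790.5 ± 27.1 in siTAZ and 857 ± 73.6 in siNT (limma adjusted p = 0.17).

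IER2 (ENSG00000160888) encodes a nuclear protein linked to transcription and cell motility. It had 4383, 3941 and 4040.1 in the siTAZ libraries, against 4941, 5543 and 5726 in the siNT libraries. Every siTAZ library was lower than every siNT library. IER2 fell by 23.7%, to 4121 ± 232 in siTAZ, against 5403 ± 410.3 in siNT (log2 fold change -0.39, SE 0.06, limma adjusted p = 2.3e-05). An antisense transcript overlapping it, AC011446.2, had 31.0 in siTAZ and 51.0 in siNT, and whether the counting kept the strands apart is not stated.

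IER3 (ENSG00000137331), also called IEX-1, encodes a regulator of cell survival and an ERK substrate. Its values were 2622, 2384 and 2305 in the siTAZ libraries, against 3041, 3135 and 3235 in the siNT libraries. The groups do not overlap. IER3 fell by 22.3%, to 2437 ± 165 in siTAZ, against 3137 ± 97.0 in siNT (log2 fold change -0.37, SE 0.05, limma adjusted p = 2.3e-05). Its antisense transcript IER3-AS1 had 17.7 in siTAZ and 21.1 in siNT and did not pass. IER3IP1, which shares the name through an interaction but encodes a protein of the endoplasmic reticulum, rose to 559 ± 81.3 in siTAZ, against 341 ± 55.8 in siNT (limma adjusted p = 4.2e-05). The ratio of IER2 to IER5 was 6.33 ± 0.190 in siTAZ and 5.27 ± 0.235 in siNT. Of 7 partner genes of IER5 and IER3, 1 rose, 3 fell and 3 did not pass. HSF1 had 6959.6 ± 539 in siTAZ and 6816 ± 454 in siNT and did not pass. Of the phosphatase subunit genes, the catalytic PPP2CA fell to 4416 ± 336 in siTAZ, against 5017 ± 332 in siNT (limma adjusted p = 0.014), and the scaffold PPP2R1A rose to 14632 ± 947 in siTAZ, against 12635 ± 606 in siNT (limma adjusted p = 0.0026). Only 2 of the 7 were called with total count scaling, without siTAZ replicate 1 or without siNT replicate 1. Among 9 heat shock genes, 8 fell and 1 rose, where 27.5% of all genes fell and 28.3% rose. Of the 9, 7 to 9 were called over the 17 alternatives. HSPH1 fell to 9006 ± 503 in siTAZ, against 13016 ± 447 in siNT, and DNAJB1 rose to 6232 ± 107 in siTAZ, against 5263 ± 84.3 in siNT. The summed level of the 9 genes was 129820 to 135640 in siTAZ and 163500 to 170910 in siNT, and its part in the change of IER5 was not tested.

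ZFP36 (ENSG00000128016), or tristetraprolin, binds AU-rich elements through a pair of CCCH zinc fingers and recruits the CCR4-NOT deadenylase. It had 1244, 1160.1 and 1219 in the siTAZ libraries, against 868, 975 and 934 in the siNT libraries. Every siTAZ library was higher than every siNT library. ZFP36 rose by 30.5%, to 1208 ± 42.9 in siTAZ, against 926 ± 53.9 in siNT (log2 fold change 0.38, SE 0.06, 95% interval 0.25 to 0.51, limma adjusted p = 4.4e-05).

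ZFP36L1 (ENSG00000185650), a paralog with the same type of zinc fingers, was the most abundant of the 8 genes by its deposited value. Its values were 7404, 7287 and 7238 in the siTAZ libraries, against 6432, 6682 and 6786 in the siNT libraries. The groups do not overlap, and the spread within them was the smallest of the 8 genes, with coefficients of variation of 1.17% in siTAZ and 2.75% in siNT. ZFP36L1 was 10.2% higher in siTAZ (log2 fold change 0.14, SE 0.04, 95% interval 0.05 to 0.23, limma adjusted p = 0.012). This call was lost with the replicate number as a block (limma adjusted p = 0.079), with a range of 0.00081 to 0.079 over 17 alternatives. The remaining paralog with a value, ZFP36L2, rose to 4644 ± 60.7 in siTAZ, against 3093 ± 188 in siNT (log2 fold change 0.59, limma adjusted p = 4.2e-08). All 3 ZFP36 family genes with a value therefore rose, by unequal amounts: the ratio of ZFP36L1 to ZFP36 was 6.06 ± 0.193 in siTAZ and 7.18 ± 0.288 in siNT, and that of ZFP36L2 to ZFP36L1 was 0.635 ± 0.00957 in siTAZ and 0.466 ± 0.0163 in siNT.

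ZFP36 is known to be phosphorylated and restrained by MAPKAPK2, which p38 alpha activates. MAPK14, the p38 alpha gene, fell and had 1283 ± 63.3 in siTAZ and 2359 ± 29.6 in siNT (log2 fold change -0.88, limma adjusted p = 4.8e-10). Of the kinases downstream of it, MAPKAPK3 fell to 2941 ± 164 in siTAZ, against 4706 ± 170.3 in siNT, and MAPKAPK2 to 2348 ± 89.5 in siTAZ, against 2863 ± 122 in siNT. HNRNPD (AUF1) and KHSRP, other AU-rich element binding proteins that promote decay, fell to 11121 ± 163 in siTAZ, against 12633 ± 136 in siNT, and to 12066 ± 554 in siTAZ, against 13907 ± 636 in siNT. ELAVL1 (HuR), which stabilises such mRNAs, did not pass, at 4946 ± 97.2 in siTAZ and 4723 ± 167 in siNT. In the list of 9 ZFP36 family genes and decay regulators, 3 rose and 5 fell, with a median log2 fold change of -0.18.

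Of 12 CCR4-NOT genes 3 rose, 4 fell and 5 were not called, the median being -0.04. Over all genes 55.8% were called, 28.3% as higher and 27.5% as lower. The deadenylase CNOT6L fell to 214 ± 20.3 in siTAZ, against 361 ± 7.96 in siNT, and the deadenylase CNOT8 rose to 2146 ± 97.1 in siTAZ, against 1733 ± 46.4 in siNT. CNOT1, the scaffold that ZFP36 binds, had 13583 ± 692 in siTAZ and 14033 ± 293 in siNT and did not pass (limma adjusted p = 0.4). Of 20 mRNAs listed as ZFP36 family targets 15 were tested, 8 fell, 2 rose and 5 were not called, the median being -0.37. The largest falls were in PLAU, the urokinase gene, at 456 ± 48.8 in siTAZ and 1726 ± 131 in siNT, BIRC3, at 109.5 ± 8.47 in siTAZ and 426 ± 57.9 in siNT, and CSF2, at 40.1 ± 8.46 in siTAZ and 150.2 ± 13.1 in siNT. PTGS2, cyclooxygenase 2, fell to 636 ± 31.2 in siTAZ, against 1087 ± 94.5 in siNT, while the kinase gene PIM1 rose to 1635 ± 87.8 in siTAZ, against 1073 ± 33.7 in siNT, and VEGFA did not pass, at 1351 ± 57.9 in siTAZ and 1384 ± 58.4 in siNT.

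DUSP1 (ENSG00000120129), also called MKP-1, encodes a nuclear phosphatase of p38, JNK and ERK. It had 853, 729.7 and 741 in the siTAZ libraries, against 780.1, 857 and 819 in the siNT libraries. The groups overlap, since siTAZ replicate 1 was second only to siNT replicate 2. The mean was 775 ± 68.2 in siTAZ and 819 ± 38.6 in siNT (log2 fold change -0.08, SE 0.07, 95% interval -0.23 to 0.07, limma adjusted p = 0.34). Without replicate 1 of both groups, a setting chosen after seeing the data, DUSP1 was lower (log2 fold change -0.19, limma adjusted p = 0.0087), with a range of 0.0087 to 0.74 over 17 alternatives.

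Of the 10 MAP kinase phosphatase genes with a value, DUSP1 included, 6 rose, 0 fell and 4 were not called. Over all genes 28.3% rose and 27.5% fell. The median log2 fold change of the 10 genes was 0.28. The largest rises were in DUSP16, at 875 ± 34.0 in siTAZ and 469 ± 27.3 in siNT, and DUSP8, at 226 ± 5.53 in siTAZ and 126 ± 5.81 in siNT, whose products act on JNK and p38. DUSP5, a nuclear ERK phosphatase, rose to 2179.7 ± 146 in siTAZ, against 1516 ± 41.9 in siNT, and DUSP4 rose to 11452 ± 100.4 in siTAZ, against 8606 ± 205 in siNT. DUSP6 and DUSP9, phosphatases of ERK in the cytoplasm, rose to 6868 ± 325 in siTAZ, against 5560.1 ± 174 in siNT, and to 1479 ± 100.1 in siTAZ, against 1240.0 ± 85.8 in siNT. Without replicate 1 of both groups, 6 rose and 2 fell. Of 21 MAP kinase pathway genes, 10 rose, 7 fell and 4 did not pass. The p38 genes went different ways: beside MAPK14, MAPK11 (p38 beta) fell to 277 ± 13.7 in siTAZ, against 477 ± 33.3 in siNT, and MAPK13 (p38 delta) rose to 1162 ± 32.0 in siTAZ, against 926 ± 53.7 in siNT. MAPK12 (p38 gamma) did not pass, at 1606 ± 33.6 in siTAZ and 1677 ± 31.3 in siNT. The p38 activator genes MAP2K6 and MAP2K3 rose, MAP2K6 to 457 ± 11.2 in siTAZ, against 235 ± 15.4 in siNT, and MAP2K3 to 4052 ± 149.98 in siTAZ, against 3313 ± 176 in siNT. MAPK8 (JNK1) rose to 1302 ± 65.4 in siTAZ, against 907 ± 10.0 in siNT. These are mRNA levels, and kinase activity was not measured.

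**Figure D2:**
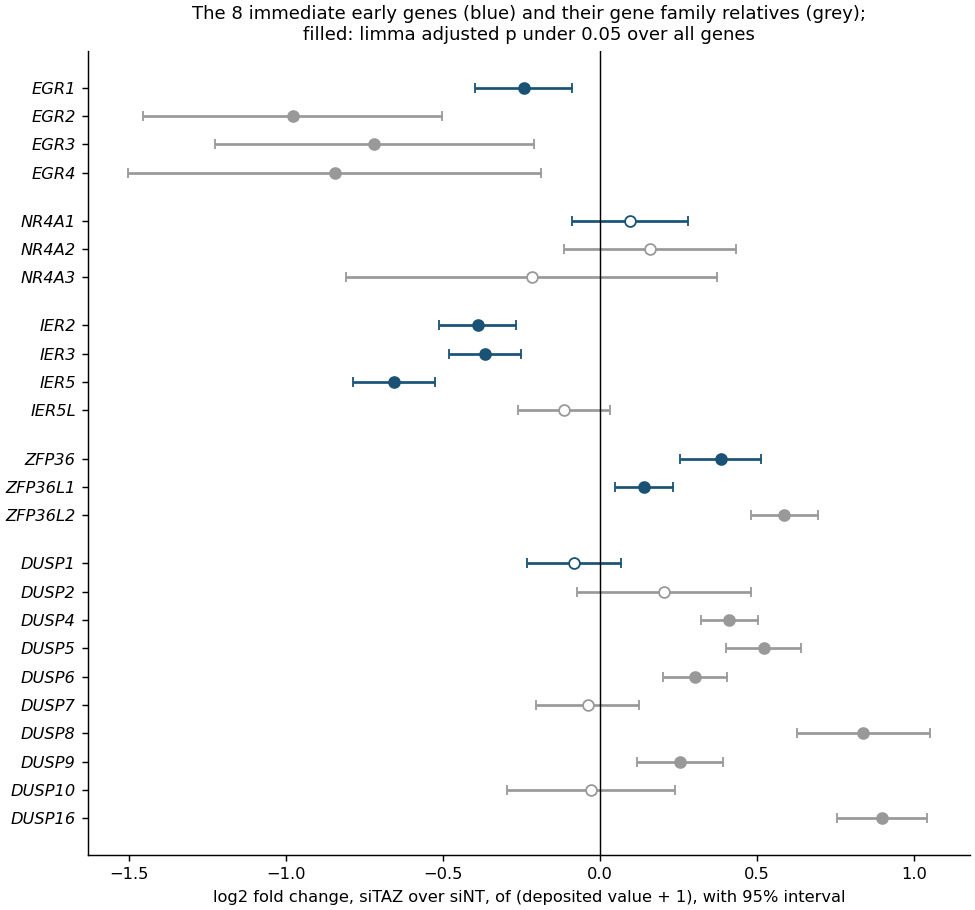
Log2 fold change (siTAZ over siNT, a pseudocount of 1 added to the values) and its 95% interval (x axis), for the 8 genes (blue) and their family relatives (grey), 3 libraries a group; filled points have a limma adjusted p under 0.05. IER3IP1 is not drawn. The EGR and IER genes drawn with filled points lie left of 0, and the ZFP36 and DUSP genes with filled points lie right of it.

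The promoters of EGR1, IER5, ZFP36 and DUSP1 are printed here because these genes cover a fall with CArG boxes upstream of the start, the largest fall, the largest rise and no call. The RefSeq promoter table (GRCh38.p14) held 7 of the 8 genes, with 2 starts each for NR4A1 and ZFP36L1, and IER3 was not matched. The 250 bases upstream of the start were searched on both strands for the CArG box, the CRE core TGACG and the full CRE TGACGTCA, the AP-1 site TGANTCA, the TEAD site GGAATG and the EGR site GCGTGGGCG, and matches are in capitals. A full CRE also counts as a pair of overlapping CRE cores. The windows are chr5:138465229-138465478 (plus strand) for EGR1, chr1:181088450-181088699 (plus strand) for IER5, chr19:39406597-39406846 (plus strand) for ZFP36 and chr5:172771196-172771445 (minus strand) for DUSP1, each read 5′ to 3′ along its gene.
EGR1: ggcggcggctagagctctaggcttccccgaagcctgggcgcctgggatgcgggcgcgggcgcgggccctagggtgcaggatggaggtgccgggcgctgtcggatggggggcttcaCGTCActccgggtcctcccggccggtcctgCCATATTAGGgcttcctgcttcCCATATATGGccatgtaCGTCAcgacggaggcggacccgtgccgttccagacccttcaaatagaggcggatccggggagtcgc
IER5: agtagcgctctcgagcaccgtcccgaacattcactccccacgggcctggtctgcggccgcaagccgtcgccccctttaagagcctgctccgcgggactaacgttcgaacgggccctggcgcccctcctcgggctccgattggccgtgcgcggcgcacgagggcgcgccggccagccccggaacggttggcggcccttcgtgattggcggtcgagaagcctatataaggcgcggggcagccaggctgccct
ZFP36: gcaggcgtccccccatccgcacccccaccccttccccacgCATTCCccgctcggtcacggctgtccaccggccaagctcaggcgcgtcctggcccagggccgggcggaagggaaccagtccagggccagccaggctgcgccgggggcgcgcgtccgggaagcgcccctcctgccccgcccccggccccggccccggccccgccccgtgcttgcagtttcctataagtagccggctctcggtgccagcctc
DUSP1: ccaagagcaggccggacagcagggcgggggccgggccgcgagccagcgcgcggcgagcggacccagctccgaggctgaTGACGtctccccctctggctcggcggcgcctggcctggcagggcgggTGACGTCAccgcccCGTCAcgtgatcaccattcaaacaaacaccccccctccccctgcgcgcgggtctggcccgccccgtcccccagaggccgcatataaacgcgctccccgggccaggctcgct

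The EGR1 window holds 2 CArG boxes, CCATATTAGG at -105 to -96 and CCATATATGG at -83 to -74 from the start, a motif found in 1.14% of 27305 promoters of the same length. No other of the 7 genes had a CArG box in this window. DUSP1 and the second start of ZFP36L1 had a full CRE, found in 1.77% of promoters. All shares of promoters here count only the first listed start of each gene, whereas every listed start of the 7 genes was searched. The first start of ZFP36L1 had neither a full CRE nor GGAATG. The CRE core was in the windows of EGR1, IER2, both ZFP36L1 starts and DUSP1, and in 21.7% of all promoters. GGAATG occurred in the ZFP36 window and at the second ZFP36L1 start, and in 11.9% of all promoters. The AP-1 site was in none of these windows, against 6.60% of all promoters, and the EGR site was in none, against 0.71%. IER5 and both NR4A1 starts had no match to any of these motifs.

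Some genes of factors that act on these elements rose, some fell and some did not pass. SRF itself fell to 2176 ± 175 in siTAZ, against 2915 ± 209 in siNT (log2 fold change -0.42, limma adjusted p = 2.5e-05). The ternary complex factor ELK3 fell to 1763 ± 29.5 in siTAZ, against 3592 ± 193 in siNT (limma adjusted p = 5.5e-11), while ELK1 and ELK4 did not pass, at 1066 ± 47.7 and 907 ± 44.9 in siTAZ and 1158 ± 63.4 and 966 ± 11.9 in siNT. MRTFA fell to 1814 ± 85.3 in siTAZ, against 2393 ± 118 in siNT, and MRTFB rose to 878 ± 49.3 in siTAZ, against 722 ± 51.7 in siNT. Of the genes of CRE-binding factors, CREB1 and ATF1 did not pass, and CREM fell to 367 ± 13.8 in siTAZ, against 465 ± 12.1 in siNT (limma adjusted p = 0.00075). The coactivator gene CRTC3 rose to 1214 ± 40.8 in siTAZ, against 864 ± 38.2 in siNT. Of 13 genes of SRF and its cofactors and CREB and its partners, 3 rose, 5 fell and 5 did not pass. Over all genes 28.3% rose and 27.5% fell. Among genes with a mean of at least 300 these shares were 31.9% and 35%. The part of these factors in the changes of the immediate early genes was not tested.

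Sites of the ZFP36 type in the 3′ untranslated regions are shown next. The choice of genes used no sequence, but AU-rich elements are usual in mRNAs of the immediate early class. Shares of such sites beside those of all genes are therefore not independent of the choice of this class. Every copy of the heptamer TATTTAT, written as DNA, is in capitals within 27 bases of GENCODE transcript sequence (GRCh38), and the IER3 and IER5 windows hold more than 1 copy, those of IER5 overlapping. The sites lie at chr6:30743644-30743670 (minus strand) in IER3, chr1:181092448-181092474 (plus strand) in IER5, chr19:39409197-39409223 (plus strand) in ZFP36, chr14:68788078-68788104 (minus strand) in ZFP36L1 and chr5:172768644-172768670 (minus strand) in DUSP1, each in the 3′ untranslated region, the copy at the centre of the window starting at base 276, 2572, 508, 1439 and 102 after the stop codon, in that order.
IER3: TATTTATatgTATTTATgtacgtcctc
IER5: ttccttTATTTATTTATTTATttaatt
ZFP36: atgacgacttTATTTATtctaatatga
ZFP36L1: actgttggatTATTTATtttagaaatt
DUSP1: ggctggtcctTATTTATttaacttcac

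The heptamer was in 5 of the 8 genes, with 4 copies each in IER3 and IER5 and 3 each in ZFP36, ZFP36L1 and DUSP1, and in 32.3% of 13183 genes with a 3′ untranslated region. The longer site TTATTTATT was in IER5, ZFP36, ZFP36L1 and DUSP1, and in 8.36% of those genes. The shorter pentamer ATTTA was in 7 of the 8 genes, IER2 being the exception, at a median of 4.81 per kilobase, against 1.56 per kilobase over all genes. IER3 was the densest, with 8.14 per kilobase over 737 bases, and EGR1 had 1 copy in 1234 bases. Genes with the heptamer include 2 that fell (IER3 and IER5), 2 that rose (ZFP36 and ZFP36L1) and 1 that did not pass (DUSP1), and genes without it include 2 that fell (EGR1 and IER2) and NR4A1. The heptamer was thus found in genes of either direction, and its part in the changes was not tested.

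Levels of different genes can be compared only per length, and here the deposited value was divided by the length of the longest principal transcript. On this scale, in units per kilobase, the order in siTAZ was ZFP36L1 at 2292 ± 26.7, IER3 at 1959 ± 132, IER2 at 1405 ± 79.0, ZFP36 at 676 ± 24.02, DUSP1 at 384 ± 33.8, EGR1 at 181 ± 10.5, IER5 at 155 ± 4.73 and NR4A1 at 122 ± 10.1. In siNT it was IER3 at 2522 ± 78.0, ZFP36L1 at 2079 ± 57.2, IER2 at 1842 ± 139.8, ZFP36 at 518 ± 30.2, DUSP1 at 406 ± 19.1, IER5 at 245 ± 10.6, EGR1 at 214 ± 15.9 and NR4A1 at 114 ± 5.89. Within each group the ranges of no neighbouring pair overlapped. Between the groups ZFP36L1 and IER3 exchanged places, as did EGR1 and IER5. The place of IER2 is uncertain, since its principal transcripts run from 1291 to 2934 bases, and with the shorter one it led in both groups, at 3192 in siTAZ and 4185 in siNT.

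All 8 genes shared the place of replicate 1 within the groups, but not the full order of the libraries. Replicate 1 was the highest of the 3 siTAZ libraries for 8 of 8 genes and the lowest of the 3 siNT libraries for 8 of 8. Among 9671 genes with a mean of at least 300, it was the highest siTAZ library for 44.7%, the lowest siNT library for 43.6%, and both for 34.2%. Replicate 1 exceeded the mean of the other two siTAZ libraries by 1.95% (ZFP36L1) to 16.0% (DUSP1), and was below that of the other two siNT libraries by a size that was greatest for IER2, at -12.3%. Without replicate 1 of both groups the falls of EGR1, IER2, IER3 and IER5 had log2 fold changes of -0.33, -0.50, -0.44 and -0.70 and the rises of ZFP36 and ZFP36L1 of 0.32 and 0.11, all 6 still called by limma, and NR4A1 was at -0.01.

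**Figure D3:**
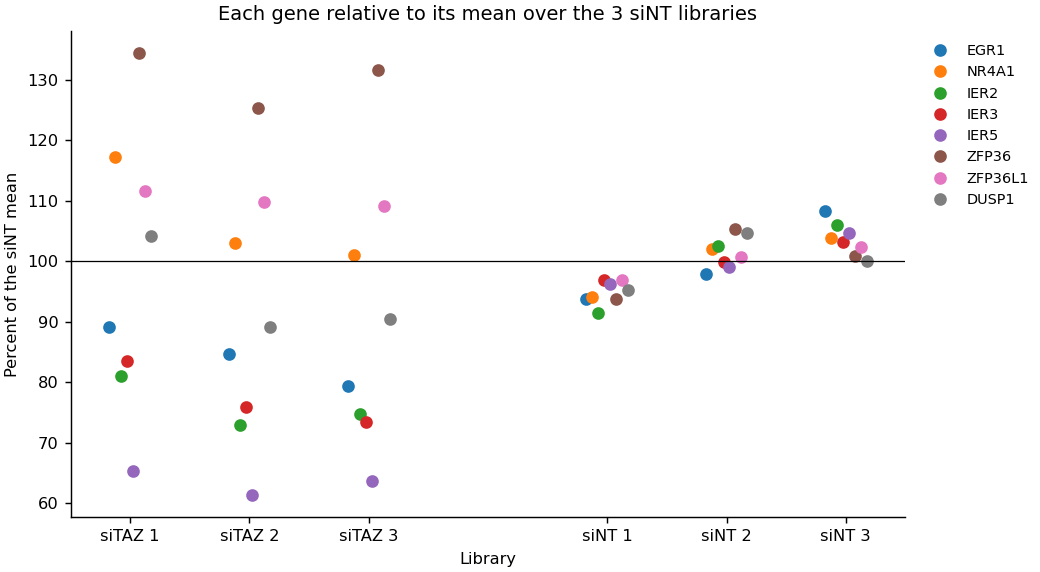
Value of each gene in each library as a percent of its own mean over the 3 siNT libraries (y axis), with the siTAZ libraries on the left and the siNT libraries on the right (x axis); each colour is a gene. In siTAZ 1 all 8 genes are higher than in siTAZ 2 and 3, and in siNT 1 all 8 are lower than in siNT 2 and 3.

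Of 7 genes of AP-1 subunits, the other arm of the immediate early response, 6 fell and 0 rose. Over all genes 27.5% fell and 28.3% rose. The median log2 fold change was -0.16 for the 8 genes and -0.68 for the AP-1 genes, a difference that was not tested. JUND was the AP-1 gene that did not pass. It was called as higher with total count scaling and without siTAZ replicate 2 or siNT replicate 2. Of 27 other genes of the immediate early class, 13 fell, 8 rose and 6 were not called, the median being -0.08. GADD45B, a stress response gene, fell to 605 ± 40.0 in siTAZ, against 1850.2 ± 73.2 in siNT, and CCN1, a matricellular protein gene, fell to 2722 ± 157 in siTAZ, against 5897 ± 328 in siNT. Like CCN1, CCN2 is a widely used readout of TAZ, and it did not pass, at 5974 ± 125 in siTAZ and 5690 ± 53.9 in siNT (limma adjusted p = 0.18). The small MAF gene MAFF fell to 259.7 ± 4.39 in siTAZ, against 589 ± 42.1 in siNT, and the stress transcription factor gene ATF3 to 156 ± 13.1 in siTAZ, against 380.4 ± 29.6 in siNT. BTG2, an antiproliferative gene, rose to 575 ± 43.1 in siTAZ, against 208 ± 12.7 in siNT. KLF4, a zinc finger transcription factor gene, fell to 1356 ± 81.0 in siTAZ, against 2085 ± 49.6 in siNT.

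The genes whose pattern over the 6 libraries was nearest to each of the 8 were found by the root mean square difference of centred log2 values among 10950 named genes with a mean of at least 100. They were CHST7 for EGR1 (0.0179), ADAM15 for NR4A1 (0.0157), RSU1 for IER5 (0.0208), MAD2L2 for IER2 (0.0176), PRPF31 for IER3 (0.0179), PPCS for ZFP36 (0.0123), ZC3H4 for ZFP36L1 (0.0041) and MFSD5 for DUSP1 (0.00976). Likeness was common, since 80 (IER5) to 516 (ZFP36L1) genes lay within 0.05 of a member. None of the 8 genes was the nearest to another of them.

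Among lists that report on transfection, 4 of 9 interferon response genes rose, 1 fell and 4 were not called. OAS1 was at 1022 ± 5.31 in siTAZ and 501 ± 6.75 in siNT and ISG15 at 463 ± 25.5 in siTAZ and 909 ± 52.5 in siNT. Their part in the changes of the 8 genes was not tested.

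**Figure D4:**
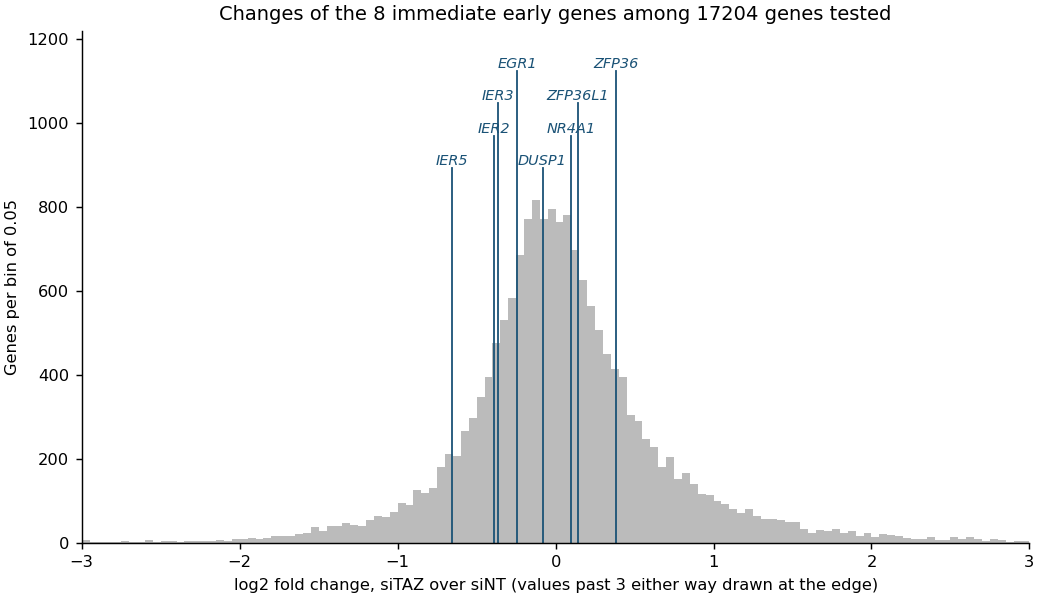
Histogram of the log2 fold change of siTAZ over siNT for 17204 genes (x axis, bins of 0.05; y axis, genes per bin), with the 8 genes marked by lines. All 8 lie between -0.65 (IER5) and 0.38 (ZFP36). Of all genes, 9.61% had a lower log2 fold change than IER5 and 77.2% a lower one than ZFP36.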

How the data were processed

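Per the submitters' processing notes, the tools were FastQC, HISAT2, HTSeq and DESeq2 on hg19. No source used here gives versions, annotation, strand setting or gene filter. The deposited values are a signal, reads divided by 1 size factor per library by the authors: 100% of the values in each library were whole multiples of 1 step, within 0.001 of a read, and dividing by the step recovered the reads. Size factors ran from 0.828 to 1.17. Gene identifiers were named from a table (15593) and GENCODE 29 (1150), and 468 stayed unnamed. GENCODE and RefSeq sequences are of GRCh38, not the build of the counts.

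Limma 3.58.1 in R 4.3.3 was fitted with a trend to log2(deposited value + 1). It covered the 17204 genes averaging at least 1 and had no term but the group, with Benjamini-Hochberg adjusted p-values. Intervals are limma's 95% intervals, and fold changes are siTAZ over siNT on that scale. EdgeR 4.0.16 (quasi-likelihood), DESeq2 1.42.0 and voom on the recovered reads (a count test), other pseudocounts, filters and scalings, a replicate block and leaving out each library were alternatives. Limma, edgeR, DESeq2 and voom were tested on simulated counts. The titles call the samples biological replicates, with no word on separate cultures or days, so p-values reflect only how these samples vary, which may include technical variation. No library repeated another: chi-square over degrees of freedom was 2.75 to 8.62 between replicates.

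The 8 genes and the gene lists were chosen with earlier results of these data known. Besides the 8 genes, up to 6 called genes per list with the smallest adjusted p were eligible for naming, or the 2 of highest mean in a list with no call, and for each of the 8 genes the nearest patterns. Uncalled relatives and others named as examples of a count were picked with their values known. Some list genes have no value and were not analysed here. Some genes counted in the lists are not reported here by name. Python 3.11.15 and matplotlib 3.10.9 were used for tables and figures.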

Additional observations from a re-analysis of the deposited data

How the results depend on the processing

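IER2, IER3, IER5 and ZFP36 kept their direction and call, and WWTR1 and YAP1 theirs, in all 17 alternatives. IER5 ran from a log2 fold change of -0.70 to -0.60, IER2 from -0.50 to -0.34, IER3 from -0.44 to -0.31 and ZFP36 from 0.32 to 0.44. EGR1 was not called without siTAZ replicate 3 (-0.20) or siNT replicate 3 (-0.18), and ran from -0.29 to -0.18 when 1 library was left out. In the same way DUSP1 ran from -0.154 to -0.0414 and NR4A1 from 0.0294 to 0.137, with its lowest values without siTAZ replicate 1 and without siNT replicate 1 (0.0534). ZFP36L1 was not called with the replicate block (0.14, limma adjusted p = 0.079). Its estimate was as in the main analysis, and its SE was 0.066 with the block and 0.044 in the main analysis. What widened the SE was not tested. Without replicate 1 of both groups, which was chosen after seeing the data, EGR1 was at -0.33, NR4A1 turned to -0.01 (-0.0135, limma adjusted p = 0.91) and DUSP1 was called as lower (-0.19, limma adjusted p = 0.0087). The number of the 8 genes called was 6 in the main analysis, 5 to 6 when 1 library was left out, and 7 without replicate 1 of both groups. Over all genes, 9604 were called in the main analysis and 8540 to 10207 in the alternatives, and calls of at least 2-fold numbered 1825 in the main analysis, 1039 with a pseudocount of 10 and 1096 with at least 1 CPM in 3 libraries.

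The replicate numbers are not known to pair the samples. Deviations of same-numbered libraries from their group means correlated at -0.532, -0.304 and -0.0868 across genes, which are not independent replicates, and no siTAZ library correlated best with its own number. With the replicate block 8701 genes and 5 of the 8 were called. Total count scaling moved the median of all genes to 0.05 (log2), and left the direction of all 8 genes as it was. With 3 libraries a group, changes of NR4A1 and DUSP1 within their 95% intervals could not be told from 0.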
